A study of Bos taurus with 8 samples.

Results

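The genes described here build, bind or cut the extracellular matrix, and were followed in bovine blood cells with and without lipopolysaccharide (LPS): VCAN, MMP9, SPP1, FN1 and TIMP1. The 5 genes were chosen by their measured levels in earlier results of these same libraries, in which VCAN and MMP9 were among the largest falls, so their RNA levels are given below as a description with no test. Of the 5 genes, 4 were found by name among the 21861 genes measured: VCAN (ENSBTAG00000014906), MMP9 (ENSBTAG00000020676), SPP1 (ENSBTAG00000005260) and FN1 (ENSBTAG00000008300). TIMP1 was not analysed here. Levels were taken over all 28484 cells kept and over 1457 of them chosen by UMIs of the monocyte receptors CD14 and CSF1R.

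Blood was drawn from 4 female Holstein cattle, 2 years old and lactating, combined into a single pool and split into 4 parts. One part had no LPS, and 3 had 2 µg/ml LPS at 37 °C for 2 h, 4 h or 8 h. Mononuclear cells were isolated after the treatment and went into 1 library per assay (scRNA-seq, scATAC-seq) for every part, so animals cannot be told apart and no difference between times has a replicate. The incubation of the no LPS part is not given in the sources used here, and time outside the animal and time with LPS cannot be told apart. RNA molecules were counted as UMIs (unique molecular identifiers), and a level is UMIs of a gene per 1000000 UMIs of the same cells (CPM), with no scaling by gene length since each molecule is counted once. The 95% intervals given below stand for counting error alone and hold no difference between animals, cells or libraries.

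VCAN encodes versican, a large chondroitin sulfate proteoglycan that binds hyaluronan and is made by circulating monocytes. MMP9 encodes gelatinase B, a secreted metalloproteinase of monocytes and neutrophils, and TIMP1 encodes an inhibitor of such enzymes. SPP1 encodes osteopontin, a secreted phosphoprotein that binds integrins and CD44, and FN1 encodes fibronectin, a matrix glycoprotein made mainly by liver and connective tissue cells. CD14 is the co-receptor that hands LPS to TLR4, and CSF1R is the receptor for the growth factor of monocytes and macrophages.

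The 4 scRNA-seq libraries kept between 16657841 and 47875879 UMIs. Positive cells were those with at least 3 UMIs of CD14 and CSF1R together. All of them held CD14, and 60.5%, 42.0%, 32.1% and 56.1% held CSF1R without LPS and after 2 h, 4 h and 8 h. They numbered 843 of 7821 cells without LPS (10.8%, 10.1 to 11.5), 386 of 9865 after 2 h (3.91%, 3.54 to 4.31), 162 of 7387 after 4 h (2.19%, 1.87 to 2.55) and 66 of 3411 after 8 h (1.93%, 1.5 to 2.46). Their share was lower at every time with LPS than without. They were deep cells, with medians of 10566, 13678, 12067 and 12118 UMIs, and gave 22.0%, 10.4%, 4.55% and 4.56% of all UMIs kept. Of the 12 monocyte markers, 12, 11, 10 and 10 were found in at least 10% of these cells. CD14 and CSF1R, which choose the cells, are among the 12, so their presence is set by the rule. Markers of lymphoid cells were low by comparison. T cell markers summed to 32.9 to 55.8 CPM, B cell markers to 80.4 to 134 CPM and NK cell markers to 11.5 to 55.4 CPM. The monocyte markers summed to 6127 to 9524 CPM, of which CD14 alone was 1338 to 2223 CPM. Fibroblast and endothelium markers summed to 144 to 267 CPM, of which PECAM1 was 131 to 245 CPM. Dendritic cell markers summed to 5.31 to 11.9 CPM, platelet markers to 8.76 to 11.9 CPM and red cell markers to 21.3 to 44.8 CPM. The granulocyte markers summed to 4882 to 11038 CPM, nearly all of it S100A12, while MMP8 was at 0 in all 4 libraries. The granulocyte receptors CSF3R and CXCR1 were highest after 4 h, with CSF3R at 8.37, 22.4, 81.0 and 21.1 CPM (in 5.58%, 12.4%, 32.1% and 13.6% of positive cells) and CXCR1 at 3.66, 11.7, 78.3 and 10.5 CPM. No cell barcode was positive in more than one library, although 6 to 21 barcodes were shared by each pair of libraries.

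The limit of 3000 genes per cell bears on these cells more than on others. Of all positive cells before that limit, 32.3%, 34.8%, 52.6% and 72.6% lay above it at no LPS, 2 h, 4 h and 8 h, and without the limit positive cells were 14.8%, 5.71%, 4.31% and 6.29% of cells. Values without the limit are therefore given beside the levels of the members, over all cells or positive cells, that they move by more than 1.5 times. Fewer monocytes and less receptor RNA per monocyte cannot be told apart from CD14 and CSF1R alone. The share of cells with UMIs of at least 4 of 8 other myeloid genes was 10.04%, 3.64%, 1.94% and 2.35%. That share has the same limit, since these genes also differed in level within positive cells. Of them AIF1 was 436, 313, 282 and 206 CPM and CD68 710, 364, 515 and 854 CPM. CD14 itself stood at 2223, 1338, 1731 and 1864 CPM and CSF1R at 128, 51.6, 50.9 and 107 CPM in positive cells, values that the choice of cells partly sets.

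VCAN was the most abundant of the 4 genes and lay almost wholly in positive cells. Without LPS 97.6% of its UMIs came from them, after 2 h 95.7%, after 4 h 93.1% and after 8 h 81.0%. CD14 had 97.6%, 95.8%, 95.3% and 76.4% there, but it helps to choose these cells, so its share is partly set by the rule. Without the limit on genes, positive cells held 98.8%, 97.1%, 96.9% and 96.0% of VCAN UMIs. In positive cells among the cells kept, the VCAN level was 1360 CPM without LPS (1336 to 1385, 11536 UMIs) and 700 CPM after 2 h (677 to 724, 3475 UMIs). It was 316 CPM after 4 h (291 to 343, 577 UMIs) and 582 CPM after 8 h (529 to 639, 442 UMIs). The 4 intervals did not overlap, and the order was no LPS, 2 h, 8 h and 4 h from highest to lowest. The VCAN level in positive cells was thus 1.94 times lower after 2 h than without LPS (1.87 to 2.02). It was 4.31 times lower after 4 h (3.96 to 4.69) and 2.34 times lower after 8 h (2.12 to 2.57). These are ratios of CPM and not of UMIs per cell, and the median positive cell was deeper at each time with LPS. Between 4 h and 8 h the VCAN level was 1.84 times higher (1.63 to 2.09). Without the limit on genes it was 1.39 times higher (1.32 to 1.47), and the levels were 1071, 575, 251 and 349 CPM. With at least 1 UMI of either receptor as the rule the step from 4 h to 8 h was 1.06 times (0.937 to 1.195), an interval that includes 1, and VCAN after 8 h was 4.71 times lower than without LPS. That wider rule took in 464 cells after 8 h with a median of 2163 UMIs. The lowest VCAN came with the most CSF3R and CXCR1. In the 783, 324, 94 and 57 positive cells without a UMI of either, VCAN was 1.89, 3.99 and 2.24 times lower with LPS, close to its ratios in all positive cells.

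**Figure D1:**
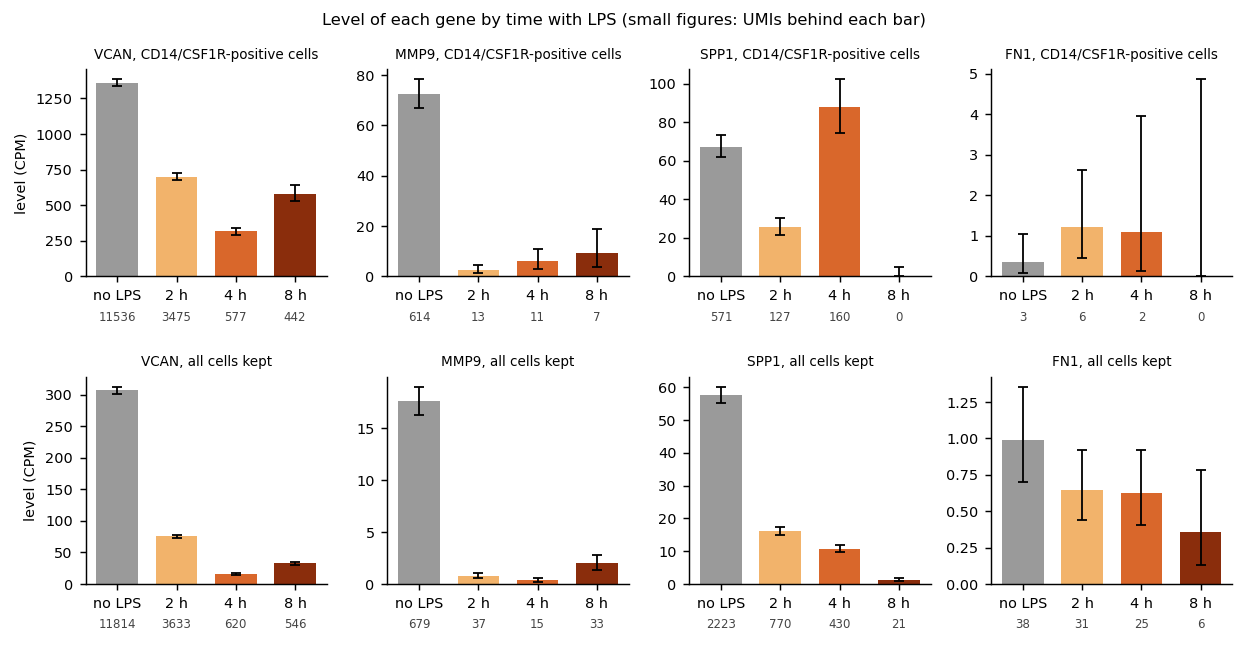
Level of each gene in CPM (vertical axis, from 0) by LPS treatment (horizontal axis), in CD14/CSF1R-positive cells (top row) and in all cells kept (bottom row). Bars are the level in 1 library, error bars are exact Poisson 95% intervals of the UMI count, and the small figures are UMIs. VCAN was lowest after 4 h (316 CPM in positive cells), MMP9 was near its floor at each time with LPS, and the SPP1 bar after 4 h in positive cells (160 UMIs) came almost wholly from 1 cell.

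The VCAN difference was spread over the positive cells rather than set by a few of them. The median positive cell held 1070 CPM of VCAN without LPS, 566 CPM after 2 h, 171 CPM after 4 h and 231 CPM after 8 h. Cells with more than 2000 CPM were 19.3%, 4.40%, 1.85% and 4.55% of the positive cells, and cells without a single VCAN UMI were 9.73%, 16.3%, 34.6% and 36.4%. At 8 h the level rested on fewer cells, since 7 of the 66 held more than 50% of the UMIs and 1 cell held 77 of the 442.

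**Figure D2:**
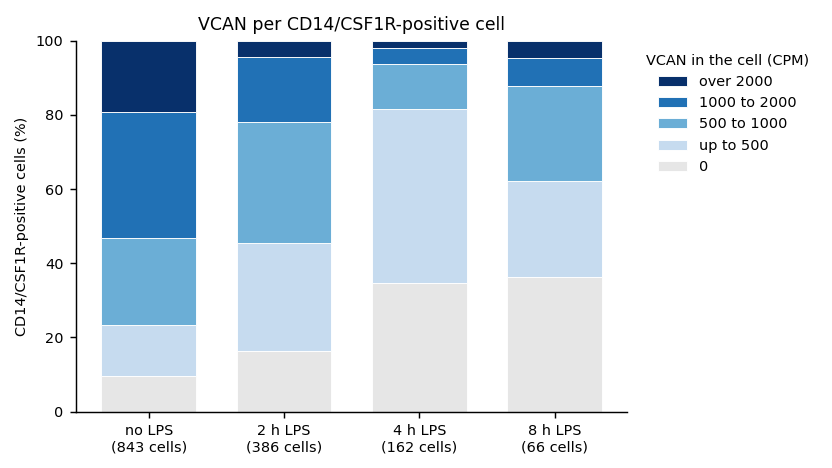
Share of CD14/CSF1R-positive cells (vertical axis, percent) by their own VCAN level in CPM (shades) for each treatment (horizontal axis, with the number of cells). The 2 darkest shades, above 1000 CPM, shrank and the 2 palest grew from no LPS to 4 h, and cells without a VCAN UMI were 34.6% after 4 h and 36.4% after 8 h.

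A share of cells depends on depth, so each cell was also thinned to 1000 UMIs. VCAN was then found in 60.4% of positive cells without LPS (56.9 to 63.8), 40.5% after 2 h (35.5 to 45.7), 26.6% after 4 h (19.8 to 34.3) and 25.4% after 8 h (15.3 to 37.9). Unthinned, the shares were 90.3%, 83.7%, 65.4% and 63.6%. The thinned shares of 4 h and 8 h did not differ beyond their intervals. Thinning left out 25, 6, 8 and 3 shallower positive cells.

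The same share in T cells gives the level that is read as background. Thinned, it was 0.392%, 0.101%, 0.0304% and 0.324%, and unthinned 1.68%, 0.519%, 0.180% and 0.720% at median depths of 4180, 4221, 4874 and 5518 UMIs. The T cell level of VCAN was 3.94, 1.13, 0.344 and 1.27 CPM, far under that of positive cells in every library.

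In positive cells MMP9 was lower with LPS by a larger factor than VCAN, from far fewer molecules. It stood at 72.4 CPM without LPS (66.8 to 78.4, 614 UMIs), 2.62 CPM after 2 h (1.39 to 4.48, 13 UMIs), 6.02 CPM after 4 h (3.01 to 10.8, 11 UMIs) and 9.22 CPM after 8 h (3.71 to 19.0, 7 UMIs). The no LPS library stood apart from the other three, whose intervals overlapped. MMP9 was 27.6 times lower after 2 h (16.0 to 52.2), 12.03 times lower after 4 h (6.67 to 24.2) and 7.85 times lower after 8 h (3.79 to 19.6). Without the limit on genes the level after 8 h was 19.5 CPM (16.7 to 22.5, 176 UMIs), which is 3.96 times lower than the 77.0 CPM without LPS, and 2.60 times higher (1.95 to 3.49) than after 4 h. In positive cells without CSF3R or CXCR1 UMIs MMP9 was 28.9, 28.8 and 16.0 times lower, from 11, 3 and 3 UMIs with LPS.

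MMP9 was also a gene of fewer positive cells than VCAN. It was found in 162 of the 843 positive cells without LPS (19.2%), in 8 of 386 after 2 h (2.07%), in 5 of 162 after 4 h (3.09%) and in 4 of 66 after 8 h (6.06%). Thinned to 1000 UMIs, the shares were 4.77% (3.41 to 6.46), 0.263%, 0 of 154 cells and 3.17% (0.387 to 11). In T cells at that depth they were 0.0713%, 0.0252%, 0 and 0.0809%.

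The no LPS cells with an MMP9 UMI were deeper than those without, with a median of 13555 against 9869 UMIs. Their VCAN level was 1409 CPM against 1345 CPM, and their CD14 level 2260 against 2211 CPM. SPP1 stood at 6.93 CPM in the 162 cells with MMP9 (14 UMIs) and at 86.2 CPM in the 681 without (557 UMIs). Only 33 of the 843 positive cells held SPP1, and 1 of them held 146 of its 571 UMIs. Nothing is read from this difference.

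MMP9 was not limited to CD14/CSF1R-positive cells. Among the cells kept they held 90.4% of its UMIs without LPS (88.0 to 92.5), but 13 of 37 after 2 h, 11 of 15 after 4 h and 7 of 33 after 8 h. With cells above 3000 genes added they held 96.3%, 65.7%, 91.9% and 86.3%. In all the other cells MMP9 was 2.16, 0.559, 0.104 and 1.64 CPM, and its ratio of 8 h to no LPS there had an interval that includes 1 (0.460 to 1.21). Cells with CSF3R, the receptor for the granulocyte growth factor, and with neither CD14 nor CSF1R numbered 65, 141, 122 and 45. MMP9 in them was 159 CPM without LPS (104 to 232, 26 UMIs), 12.7 CPM after 2 h (4.13 to 29.7, 5 UMIs), 2.58 CPM after 4 h (1 UMI) and 46.9 CPM after 8 h (18.9 to 96.7, 7 UMIs). The level in these cells, too, was highest without LPS, and the interval after 8 h lay above that after 4 h. Granulocyte markers in them summed to 24995, 2455, 1872 and 3775 CPM, of which S100A12 alone was 23349, 1370, 638 and 2836 CPM. CXCR1 was 555, 277, 354 and 308 CPM, CXCR2 48.8, 73.7, 80.0 and 67.1 CPM, and LTF 183, 28.0, 5.16 and 20.1 CPM. The markers thus did not move together, and CSF3R chooses the cells. Whether the CSF3R-positive cells of the 4 libraries are of the same kind was not tested.

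Over all cells kept, a level joins the share of UMIs from positive cells with the levels in positive and other cells. VCAN over all cells was 307 CPM without LPS, 75.9 CPM after 2 h, 15.4 CPM after 4 h and 32.8 CPM after 8 h. It was 4.04, 19.9 and 9.36 times lower with LPS in that order, and MMP9, at 17.6, 0.773, 0.374 and 1.98 CPM, was 22.8, 47.2 and 8.90 times lower. Without the limit on genes these factors were 3.56, 10.03 and 3.93 for VCAN and 28.1, 23.5 and 4.67 for MMP9.

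Each factor was then held at its no LPS value in turn. With the share of UMIs from positive cells held, VCAN was 1.95, 4.36 and 2.30 times lower after 2 h, 4 h and 8 h. With the levels held and the share as measured, VCAN was 2.05, 4.34 and 4.33 times lower. Among the cells kept, the smaller share of UMIs and the lower VCAN levels thus had similar parts after 2 h and 4 h. After 8 h the smaller share had the larger part. A share of UMIs is not a share of cells, and positive cells were 10.8%, 3.91%, 2.19% and 1.93% of cells. Which part was larger depended on the limit on genes. Without it VCAN was 1.87, 4.28 and 3.03 times lower with the share held and 1.91, 2.33 and 1.31 times lower with the levels held. The lower levels were then the larger part after 4 h and 8 h. For MMP9 the lower levels were the larger part at each time. It was 17.4, 12.5 and 5.33 times lower when the share was held, against 1.87, 3.29 and 3.29 times lower when the levels were held. This held without the limit too, with 18.3, 10.4 and 3.72 against 1.84, 2.21 and 1.29.

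**Figure D3:**
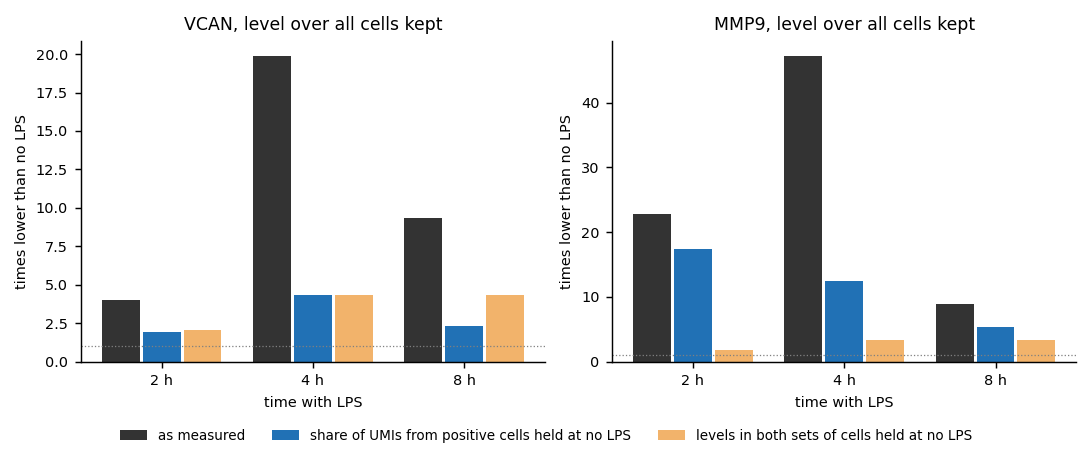
Times by which the all-cell level was lower than without LPS (vertical axis, from 0, each panel with its own scale) for VCAN (left) and MMP9 (right) at each time with LPS. Black bars are as measured, blue bars hold the share of UMIs from CD14/CSF1R-positive cells at its no LPS value, orange bars hold the levels. At 4 h the blue and orange bars of VCAN were 4.36 and 4.34, and those of MMP9 12.5 and 3.29, among cells of up to 3000 genes.

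SPP1 was spread over positive and other cells, in parts that depended on the limit on genes. Among the cells kept, 25.7% of its UMIs without LPS lay in positive cells (23.9 to 27.6), 16.5% after 2 h, 37.2% after 4 h and none of 21 after 8 h. With cells above 3000 genes added the shares were 53.4%, 65.98%, 58.0% and 57.9%, where positive cells held 38.6%, 19.9%, 16.1% and 29.3% of all UMIs. VCAN, by contrast, had at least 96.0% of its UMIs in positive cells of each library without the limit. SPP1 was therefore not a gene of CD14/CSF1R-positive cells alone, and whether it marks monocytes was not tested. Over all cells its level was 57.7 CPM without LPS, 16.1 CPM after 2 h, 10.7 CPM after 4 h and 1.26 CPM after 8 h, from 2223, 770, 430 and 21 UMIs. These all-cell levels followed the order of time, and the no LPS level was 3.59, 5.39 and 45.8 times that of 2 h, 4 h and 8 h. With cells above 3000 genes added it was 2.18, 5.50 and 35.2 times, from levels of 64.9, 29.8, 11.8 and 1.85 CPM.

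In positive cells SPP1 was 67.3 CPM without LPS, 25.6 CPM after 2 h and 87.6 CPM after 4 h, and 0 UMIs were found in the 66 cells of 8 h. The 0 of 66 cells allows a share of up to 4.55% of cells with an SPP1 UMI. Since SPP1 was found in only 3.91% of positive cells without LPS, 0 of 66 cells is not detectably below that share. After 4 h 1 cell held 150 of the 160 UMIs of positive cells, and after 2 h another held 66 of the 127. Without the limit on genes the levels were 89.9, 98.9, 42.5 and 3.65 CPM, so that 2 h was then above no LPS and 4 h below it. In positive cells without CSF3R or CXCR1 UMIs, which leave out that 1 cell, SPP1 was 58.3 CPM without LPS and 5.89 CPM after 4 h. The counting intervals of SPP1 are too narrow for a gene held by so few cells, and the order of no LPS, 2 h and 4 h in positive cells is not firm.

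Among the cells kept, most SPP1 molecules came from a few cells rich in it. Cells with at least 10 SPP1 UMIs numbered 32 without LPS, 9 after 2 h, 5 after 4 h and 0 after 8 h, and held 92.3%, 90.6% and 93.7% of the SPP1 UMIs of the first 3 libraries. Of them 12, 3 and 1 were CD14/CSF1R-positive. In the 32 cells without LPS, genes found in at least 16 of them were ranked by level over the other cells, with 10 CPM added. After SPP1 itself, the highest named genes were PTI (1821 against 53.1 CPM), CCL4 (25424 against 944) and TNFRSF18 (802 against 43.6). Next came CCL3 (16116 against 1147) and CD9 (1673 against 235). Genes in fewer of the 32 cells were not ranked, though some stood out as much. CSF1, named here outside the rule, was in 13 cells at 1460 against 35.4 CPM. CSF2, likewise, was in 2 cells at 520 against 1.54 CPM. CCL3 and CCL4 encode chemokines, TNFRSF18 a co-stimulatory receptor of the TNF receptor family and CD9 a tetraspanin. These cells had a median of 3330 UMIs, below that of positive cells. GATA2, a haematopoietic transcription factor looked up after the values were seen, was in 9 of the 32 cells at 212 CPM against 4.23 CPM elsewhere. With these cells left out, the all-cell log2 ratios of SPP1 were -1.13, -1.71 and -1.28 in place of -1.78, -2.33 and -4.70.

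FN1 was at the edge of detection. Over all cells it had 38 UMIs without LPS, 31 after 2 h, 25 after 4 h and 6 after 8 h, or 0.987, 0.648, 0.623 and 0.360 CPM. Of the 38, 1 cell held 23. Intervals of 2 h and 4 h against no LPS included 1 (0.395 to 1.08 and 0.365 to 1.07), while that of 8 h did not (0.126 to 0.870). Without the limit on genes the level after 8 h was 0.907 CPM, and the interval of 8 h against no LPS included 1 as well (0.531 to 1.37). Positive cells held 3, 6, 2 and 0 of these UMIs, and the other cells 35, 25, 23 and 6, so the level in positive cells was too low to compare. Without the limit on genes positive cells had 22, 30, 18 and 9 FN1 UMIs, or 0.984, 2.37, 1.98 and 0.995 CPM, and the ratio of 2 h to no LPS was 2.41 (1.34 to 4.39).

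Whole-table counts give the background for the members. Ratios are log2 of CPM + 1 over CPM + 1 for genes with at least 20 UMIs over the 2 libraries, and a gene was counted as lower or higher from 2-fold on. In positive cells 3 of the 4 genes reached 20 UMIs, and 2 of 3 were lower after 2 h, where 13.4% of 8550 genes were, 2 of 3 after 4 h against 8.59% of 8308, and 3 of 3 after 8 h against 8.32% of 8088. None was higher, against a background of 3.72%, 5.72% and 4.39%. Over all cells 3 of 4 were lower at each time, against 2.46% of 12150 genes after 2 h, 4.26% of 12060 after 4 h and 2.92% of 11778 after 8 h, and none was higher, against 0.938%, 1.28% and 0.492%. The genes were chosen on these very contrasts, so nothing is read from the counts.

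The place of VCAN among all genes changed between the 2 views. Counted from the largest fall, VCAN was gene number 30, 5 and 7 over all cells after 2 h, 4 h and 8 h, but number 1293, 87 and 462 within positive cells. MMP9 was number 2, 9 and 17 over all cells and number 2, 10 and 33 within positive cells. At 2 h VCAN in positive cells lay just outside the 2-fold limit at -0.96, whereas SPP1 lay inside it at -1.36.

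The whole distribution of positive cells was shifted after 2 h. The median log2 ratio of all genes compared was -0.42 after 2 h, -0.08 after 4 h and -0.06 after 8 h in positive cells, and -0.03, 0.02 and 0.10 over all cells. Scaling by TMM moved the ratios in positive cells after 2 h by 0.37. Relative to that shift VCAN after 2 h was -0.59, MMP9 -4.05 and SPP1 -1.001, all still below 0.

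Of 90 other genes of the matrix and its turnover, 88 were matched by name and 49 to 50 reached 20 UMIs in positive cells. At 2 h 12 of 49 were lower and 3 higher (24.5% and 6.12%), after 4 h 18 of 50 and 5 (36% and 10.0%), and after 8 h 10 of 49 and 3 (20.4% and 6.12%), to be set beside the all-gene percentages above. The list's median log2 ratios were -0.37, -0.57 and -0.21, against -0.42, -0.08 and -0.06 for all genes. With TMM scaling the 2 h counts were 6 lower and 7 higher, so the balance after 2 h depended on the scaling. Over all cells, where the smaller share of positive cells enters every ratio, 18, 27 and 19 of 59 were lower and 2, 0 and 1 higher, beside 2.46%, 4.26% and 2.92% of all genes lower.

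Of 8 matrix proteins compared, 2, 5 and 2 were lower after 2 h, 4 h and 8 h, and 0, 1 and 1 higher, beside 13.4%, 8.59% and 8.32% of all genes lower. These percentages are the background of each group that follows, and nothing is read from groups this small. TGFBI, a secreted adhesion protein, went from 37.6 CPM without LPS to 12.3, 4.93 and 3.95 CPM, and FGL2, a fibrinogen-like protein, from 88.3 CPM to 16.7, 17.5 and 69.8 CPM. TGFBI stayed low after 8 h, whereas FGL2 after 8 h was within 2-fold of no LPS. TGM2, a transglutaminase that crosslinks matrix proteins, was 2.24, 1.61, 12.6 and 26.4 CPM from 19, 8, 23 and 20 UMIs, the highest ratio of the list after 8 h.

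Genes of hyaluronan, the glycan that versican binds, differed in direction. HAS2, a hyaluronan synthase, had 179 UMIs in positive cells without LPS and 2, 12 and 0 with LPS (21.1, 0.403, 6.57 and 0 CPM). TNFAIP6, which encodes a hyaluronan-binding protein induced in inflammation, was 18.0 CPM without LPS, 227 CPM after 2 h, 76.6 CPM after 4 h and 18.4 CPM after 8 h. It was 12.6 times higher after 2 h (10.6 to 14.98) and level with no LPS after 8 h. Of 4 or 5 genes of this group compared, 1, 1 and 2 were lower and 1, 1 and 0 higher.

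The other metalloproteinases compared differed in direction. Of 6 compared, 1, 2 and 0 were lower and 1 was higher each time. MMP1, an interstitial collagenase, was 93.2 CPM without LPS and 144, 187 and 287 CPM with LPS, and MMP3, stromelysin, was 6.60, 14.7, 31.7 and 3.95 CPM. MMP14, a membrane-bound metalloproteinase, was 178, 131, 152 and 296 CPM. MMP19 was 67.7, 30.2, 13.7 and 87.0 CPM, and MMP25, another membrane-bound member, 6.13, 3.02, 1.09 and 9.22 CPM from 52, 15, 2 and 7 UMIs. MMP19 and MMP25 were thus lowest after 4 h, as VCAN was, and MMP1 was highest after 8 h. Of 5 ADAM genes, 3, 2 and 1 were lower and none higher.

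Inhibitors and partner proteases also differed among themselves. SERPINB2, an inhibitor of plasminogen activators and among the most abundant of the list, was 4705, 3991, 2910 and 1238 CPM, or 0.263 of its no LPS level after 8 h (0.246 to 0.281). PLAU, the urokinase that it blocks, was 197, 334, 431 and 219 CPM. TIMP2, named here after its values were seen because TIMP1 was not analysed, was 193, 87.6, 69.0 and 101 CPM. CTSL, a lysosomal protease, was 5.54, 10.3, 2.19 and 0 CPM from 47, 51, 4 and 0 UMIs.

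Of 17 receptors for matrix and for osteopontin compared, 4, 6 and 3 were lower and 0, 0 and 1 higher. ITGAV, the integrin chain that binds osteopontin, was 8.02, 15.7, 16.4 and 29.0 CPM, and ITGB3, a partner chain, 101, 129, 175 and 165 CPM. ITGA5, the fibronectin receptor chain, was 33.7, 12.3, 22.4 and 34.3 CPM, and MSR1, a scavenger receptor, had 40, 2, 0 and 0 UMIs. CD44, the receptor for hyaluronan and osteopontin, named here for that role after its values were seen, was 394, 517, 534 and 477 CPM.

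**Figure D4:**
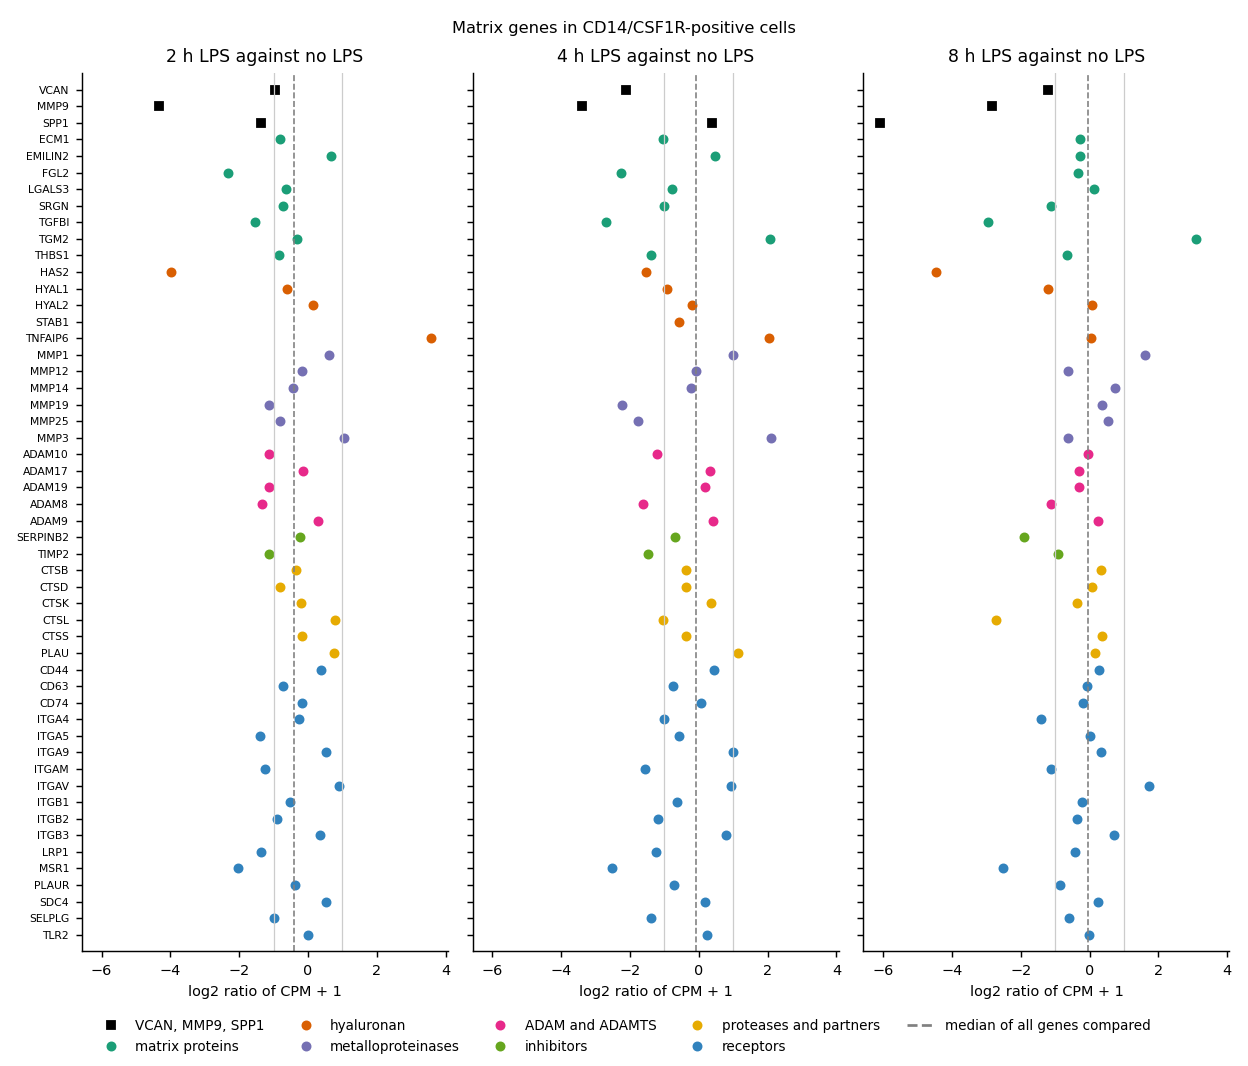
Log2 ratio of CPM + 1 against no LPS (horizontal axis) in CD14/CSF1R-positive cells for VCAN, MMP9 and SPP1 (squares) and for genes of the matrix list with at least 20 UMIs, 1 of them not shown (points, coloured by group), after 2 h, 4 h and 8 h (panels). The dashed line is the median of all genes compared (-0.42, -0.08 and -0.06), grey lines mark 2-fold. MMP9 and HAS2 lay far to the left after 2 h, and TNFAIP6 (3.58) far to the right.

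Over the 3 ratios in positive cells, 4478 genes with at least 200 UMIs were ranked by Euclidean distance to each member. Nearest to VCAN were EREG at 0.28, the gene ENSBTAG00000050846 at 0.43 and TNFSF8 at 0.46. EREG, which encodes the growth factor epiregulin, was 115, 50.4, 27.4 and 43.5 CPM, and TNFSF8, the ligand of CD30, 62.0, 23.6, 14.2 and 22.4 CPM. In T cells EREG was at most 0.464 CPM, whereas TNFSF8 was 85.3, 114, 107 and 110 CPM, above its level in positive cells. Nearest to MMP9 were ENSBTAG00000047700 (0.68), JCHAIN (0.84) and another gene without a name (0.88). JCHAIN, which encodes the chain that joins polymeric antibodies, was 183, 9.67, 18.6 and 43.5 CPM in positive cells and 26.9, 13.8, 11.4 and 19.6 CPM in T cells. SPP1 had no near gene, with distances from 2.06 (a gene without a name) over 3.41 (CFP, properdin) to 3.57 (RNASE4, a ribonuclease). FN1 had too few UMIs.

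Accessibility of the genes is a readout that the choice of members did not use. In scATAC-seq a transposase cuts open chromatin and counts are given per gene and nucleus. The rule that ties counts to genes is not given in the sources used here. Counts were mostly even numbers, so intervals rest on the counts divided by 2. The libraries held 975012 counts without LPS, 30250143 after 2 h, 26837579 after 4 h and 11957904 after 8 h, so the no LPS values are the least precise. All nuclei were used, since CD14 was not analysed here in the no LPS and 8 h libraries.

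MMP9 differed in accessibility between times, and not in the order of its RNA. It had 13.3 counts per 1000000 (CPM) without LPS (5.14 to 28.2, 13 counts), 44.7 after 2 h (41.4 to 48.2, 1351 counts), 37.0 after 4 h (33.8 to 40.4, 992 counts) and 14.0 after 8 h (11.1 to 17.3, 167 counts). The libraries of 2 h and 4 h lay above both others, and no LPS and 8 h overlapped. With only the nuclei of at least 500 counts, no LPS was 11.8 CPM from 4 counts (1.43 to 42.5), which overlaps every other library. The ratio to no LPS was 3.35 after 2 h (1.58 to 8.73) and 2.77 after 4 h (1.30 to 7.23), where 9.22% and 8.23% of genes were at least 2-fold higher. With nuclei of at least 500 counts they were 3.79 (1.05 to 31.4) and 3.14, whose interval includes 1 (0.865 to 26.0). At 8 h MMP9 was 0.378 of its 4 h value (0.296 to 0.477), where 5.65% of genes were at least 2-fold lower. MMP9 counts were found in 550 of 4172 nuclei after 2 h (13.2%), 413 of 3231 after 4 h (12.8%) and 83 of 3163 after 8 h (2.62%). These shares depend on depth, and nuclei were shallower after 8 h. The 8 h library held 11957904 counts, against 26837579 after 4 h. MMP9 RNA was at its lowest in the same hours, at 0.773 CPM over all cells after 2 h and 0.374 CPM after 4 h.

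The other 3 genes did not show this pattern. VCAN had 17.4 CPM without LPS (7.76 to 33.7), 10.4 after 2 h (8.82 to 12.1), 8.46 after 4 h (6.97 to 10.2) and 10.3 after 8 h (7.88 to 13.2), and the ratios to no LPS all had intervals that include 1. SPP1 had 13.3, 6.58, 7.75 and 8.78 CPM, also with intervals that include 1. FN1 had 19.5, 10.2, 11.7 and 7.69 CPM, and only its ratio of 8 h to no LPS, 0.395 (0.194 to 0.896), did not include 1. With nuclei of at least 500 counts that ratio was 1.31 (0.223 to 52.7), from 2 counts without LPS. All 4 genes lay under the median gene in each library, which had 50.9 to 67.7 CPM. In the 27 nuclei after 2 h and 18 after 4 h with counts on both CD14 and CSF1R, VCAN had 37.8 CPM (18.9 to 67.6) and 15.2 CPM (4.55 to 36.9), and MMP9 had 36.05 CPM (17.7 to 65.4) and 65.7 CPM (39.8 to 102).

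**Figure D5:**
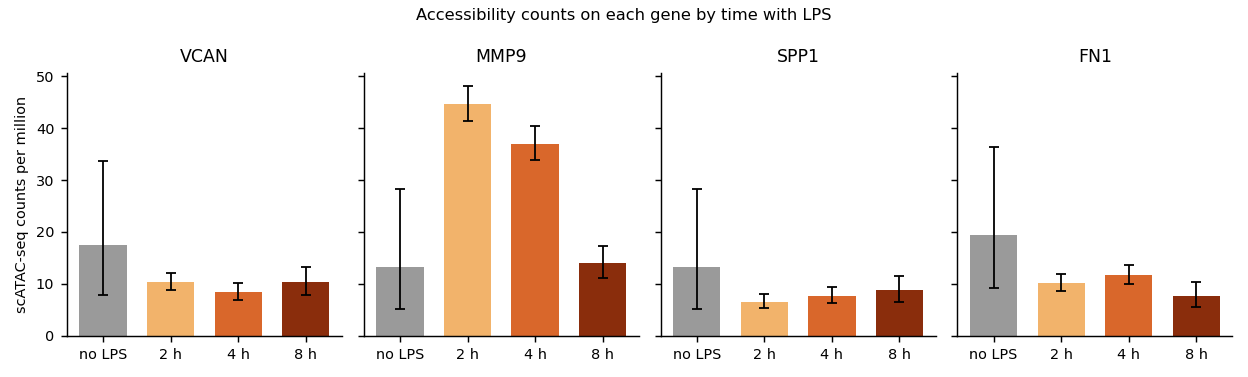
scATAC-seq counts per 1000000 counts of the library (vertical axis, from 0) on each gene by LPS treatment (horizontal axis), 1 library per bar. Error bars are 95% Poisson intervals on the counts divided by 2. MMP9 was higher after 2 h (44.7) and 4 h (37.0) than after 8 h (14.0), and the wide intervals without LPS reflect a library of 975012 counts.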

How the data were processed

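Per the labels and the study's methods, the authors made UMI counts per gene and barcode with Cell Ranger on ARS-UCD1.2 and deposited them without normalization, 1 table per scRNA-seq library. For scATAC-seq they deposited counts per gene and barcode, and the counting rule is not given in the sources used here. Both kinds of count were used as deposited, and gene names came from the scRNA-seq tables.

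Barcodes were retained with 200 to 3000 detected genes, 200 or more UMIs and less than 20% of UMIs from 13 mitochondrial genes, limits taken from the study with its UMI limit read as a minimum. Genes found in few cells were kept. In every library this left more cells than the study counts. T cells had at least 2 UMIs of CD3E, CD3D and CD3G and none of the CD14, CSF1R or B cell genes. UMIs were summed over cells, scaled to CPM and compared with a pseudocount of 1 CPM for genes with at least 20 UMIs over 2 libraries. Intervals are exact Poisson, Clopper-Pearson or conditional binomial at 95%, and a count of 0 was given a floor of 3 counts. No doublet caller was run, and cells with lymphoid UMIs were left out as an alternative. With 1 library per treatment no p-value was computed. Python 3.11.15, numpy 2.4.6, scipy 1.17.1, pandas 2.3.3 and matplotlib 3.10.9 were used, with edgeR 4.0.16 (TMM) and DESeq2 1.42.0 (size factors) in R 4.3.3 for scaling only. The ratio step was tested on simulated data.

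The members and the lists were chosen with earlier results of these data known. The genes named are the members, CD14 and CSF1R, the cell type markers, the 5 highest and 5 lowest ratios of the matrix list at each time in positive cells, and for each member the 3 genes nearest over the 3 ratios. Genes outside that rule are marked in the text or are those leading the cells rich in SPP1. One gene that this rule names is not reported here. No sequence was printed.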

Additional observations from a re-analysis of the deposited data

Results flagged for a closer look

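One result differed between sets of cells within the same contrast. At 4 h against no LPS, SPP1 was 1.30 times as high in CD14/CSF1R-positive cells (1.08 to 1.55) and 0.128 times as high in the other cells (0.112 to 0.146), so that the sets moved in opposite directions. The difference was not tested, since each treatment had 1 library. A single cell held 150 of the 160 SPP1 UMIs of the positive cells at 4 h, and with cells of at least 10 SPP1 UMIs left out the log2 ratio in positive cells was -0.07 in place of 0.37. Without the limit on genes SPP1 in positive cells was 0.473 times as high as without LPS (0.423 to 0.528). No group had the 4 replicates that a search for outlying samples needs.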

How the results depend on the processing

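VCAN and MMP9 were below no LPS under each of 14 alternatives in positive cells and 8 over all cells, at each time. Log2 ratios in positive cells ranged for VCAN from -1.01 to -0.52 at 2 h, -2.31 to -1.88 at 4 h and -2.23 to -1.07 at 8 h, and for MMP9 from -4.70 to -3.34, -4.39 to -2.81 and -3.73 to -1.93. SPP1 in positive cells turned to 0.14 at 2 h without the limit on genes, and at 4 h was below 0 under 6 of 14 alternatives. The cause was not tested.

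The number of members at least 2-fold lower at 2 h in positive cells was 1 in place of 2 with DESeq2 size factors, without the limit on genes and without cells of at least 10 SPP1 UMIs. The last of these, the alternative without cells with CSF3R or CXCR1 UMIs, the alternatives for the matrix list and the split of VCAN and MMP9 without the limit were chosen after seeing the data. The share of positive cells (no LPS, 2 h, 4 h, 8 h) was 6.66%, 1.66%, 0.704% and 1.35% with at least 1 UMI of each receptor, 16.2%, 6.44%, 3.99% and 13.6% with 1 UMI of either, and 14.8%, 5.71%, 4.31% and 6.29% without the limit on genes. It was 10.04% without LPS by at least 4 of 8 other myeloid genes. After thinning with 1 UMI of either it was 11.6%, 3.68%, 2.28% and 7.19%, in the same order. The higher share at 8 h than at 4 h under 1 UMI of either came with a median of 2163 UMIs in those 464 cells. It was still seen after thinning, and its cause was not tested.

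Thinned shares of positive cells with a UMI, in the same order, were 60.4%, 40.5%, 26.6% and 25.4% for VCAN. They were 1.96%, 1.05% and 0.649% for SPP1 and 4.77%, 0.263% and 0 for MMP9 in the first 3 libraries, and 0 for FN1 in each of them.

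Counts of all genes in positive cells at least 2-fold lower at 2 h, 4 h and 8 h were 465, 271 and 122 with a minimum of 200 UMIs and 559, 357 and 182 without the limit on genes. At 8 h they were 1106 with no minimum, and higher genes 861. With 200 UMIs higher genes were 186, 194 and 75. Over all cells 146 genes were lower at 8 h without the limit on genes. Of the matrix list in positive cells at 2 h, 6 were lower and 7 higher with TMM and 4 and 8 with DESeq2 size factors, which also gave 8 higher at 4 h.

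With nuclei of at least 500 counts, the no LPS library kept 339833 counts and FN1 accessibility was above no LPS, at log2 ratios of 0.70, 0.88 and 0.34 at 2 h, 4 h and 8 h in place of -0.87, -0.69 and -1.24, resting on 2 FN1 counts without LPS. MMP9 at 4 h then had an interval that includes 1. The ratios in nuclei with counts on both CD14 and CSF1R were not run, since 27 such nuclei at 2 h and 18 at 4 h, and none in the other libraries, were picked. No paired analysis was possible because each treatment had 1 library. Depth limits MMP9 with LPS to 7 to 13 UMIs in positive cells, and 8 h to 66 such cells.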
